A study of Homo sapiens with 24 samples.

Results

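Transcript levels of 8 chemokine genes, CXCL1, CXCL2, CXCL3, CXCL5, CXCL8, CXCL16, CCL2 and CCL20, were followed in MCF10A cells in which CHD1 was depleted with hairpins. The genes were picked by symbol as chemokines of breast epithelial cells, 8 of 59251 genes in the count table. They were chosen by a list drawn up with results of these libraries known, in which CXCL3, CXCL8 and CCL20 already stood among the genes lower under both CHD1 hairpins. Their values against the GFP hairpin are therefore given as a description, with no test, and tests are given only for comparisons of PM with PE and of hairpin B with hairpin A.

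MCF10A is an established, non-tumorigenic line of human breast epithelial cells. Its 2 derivatives here are PE, labelled non-transformed, and PM, labelled as transformed by MYC. The labels neither spell out these letters nor say whether each is 1 clone. Each line carried shGFP, the control hairpin against GFP, or 1 of 2 hairpins against CHD1, shCHD1 A and shCHD1 B (below, GFP hairpin, hairpin A and hairpin B), with 4 libraries in each of the 6 groups and 24 in all. CHD1 encodes a nucleosome remodeller whose chromodomains recognise methylated histone H3. All cultures, controls included, received doxycycline at 50 ng/ml over 72 h, and their medium held 5% horse serum, EGF at 20 ng/ml, hydrocortisone at 500 ng/ml, cholera toxin at 100 ng/ml and insulin at 10 µg/ml. The labels call the 4 libraries biological replicates but do not tell whether separate cultures lay behind them. The p-values below measure only the spread between libraries, which may be technical.

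Chemokines are small secreted proteins that draw leukocytes along a gradient by binding receptors with 7 membrane spans. CXCL1, CXCL2, CXCL3, CXCL5 and CXCL8 carry an ELR motif before the CXC cysteines, bind CXCR2 (CXCL8 also binds CXCR1) and recruit neutrophils. CCL20 binds CCR6, CCL2 binds CCR2 and recruits monocytes, and CXCL16 is made as a membrane protein that binds CXCR6 and can be shed. In epithelial cells most of the ELR chemokines and CCL20 are induced through NF-kB by interleukin 1, TNF and Toll-like receptors, and their messages are short-lived because of AU-rich elements.

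The 120 bases before the RefSeq start site (GRCh38.p14) are shown for the 6 members with a promoter entry, because these genes moved together and 5 of them share a stretch of 9 letters. Each sequence runs 5′ to 3′ on the strand of its gene, and capitals mark GGAATTTCC in the CXCL genes and GGAAAACCC in CCL20, letters of the kind that NF-kB dimers bind.
CXCL1, chr4:73869273-73869392, plus strand: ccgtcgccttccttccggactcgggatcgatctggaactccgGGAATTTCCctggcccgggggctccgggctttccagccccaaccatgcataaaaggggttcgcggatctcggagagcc
CXCL2, chr4:74099196-74099315, minus strand: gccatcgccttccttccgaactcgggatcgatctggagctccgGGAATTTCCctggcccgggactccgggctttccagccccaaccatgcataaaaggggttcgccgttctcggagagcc
CXCL3, chr4:74038690-74038809, minus strand: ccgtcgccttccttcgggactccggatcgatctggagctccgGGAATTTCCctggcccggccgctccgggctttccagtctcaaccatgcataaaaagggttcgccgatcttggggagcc
CXCL5, chr4:73998678-73998797, minus strand: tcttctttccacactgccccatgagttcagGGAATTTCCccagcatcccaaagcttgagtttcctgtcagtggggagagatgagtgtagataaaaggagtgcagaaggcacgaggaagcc
CXCL8, chr4:73740449-73740568, plus strand: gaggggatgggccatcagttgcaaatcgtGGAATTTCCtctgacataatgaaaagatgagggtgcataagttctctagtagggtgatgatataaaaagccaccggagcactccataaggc
CCL20, chr2:227813722-227813841, plus strand: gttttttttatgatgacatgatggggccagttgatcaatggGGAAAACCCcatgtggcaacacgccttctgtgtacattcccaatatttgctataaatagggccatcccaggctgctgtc

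GGAATTTCC begins 78 bases before the start of CXCL1 and of CXCL3, 77 before that of CXCL2, 90 before that of CXCL5 and 91 before that of CXCL8. On either strand (its reverse complement is GGAAATTCC) the letters occur in 145 of 35116 promoters of 250 bases, or 0.413%. GGAAAACCC (reverse complement GGGTTTTCC), which does not overlap the other motif, was searched after the CCL20 sequence had been read. It begins 79 bases before that start and occurs in 137 promoters, or 0.390%. Promoters of 250 bases were aligned end to end with gaps allowed, and identity is the share of the 250 bases that matched. It was 84.0% for CXCL1 and CXCL3, 78.0% for CXCL2 and CXCL3 and 75.6% for CXCL1 and CXCL2. Every other pair lay between 46.0% and 56.0%. Gaps raise such values, and no unrelated promoters were aligned for comparison. A match is a description of the letters, and factor binding was not measured. CXCL16 and CCL2 had no promoter entry.

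Other genes carry the same letters. Of 69 further tested genes whose promoters hold GGAATTTCC, 7 fell under both hairpins in PE (10.1%, against 5.58% of all tested genes). In PM 8 fell (11.6%, against 6.89%). Another 4 rose in PE (5.80%, against 6.75%) and 8 in PM (11.6%, against 6.46%). The median change of these 69 genes, as the mean of both hairpins on the log2 scale, was -0.03 in PE and -0.09 in PM, beside -0.003 and -0.01 over all 20820 tested genes.

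Total counts per library ran from 4.14 to 93.3 M with a median of 49.5 M. CHD1 fell from 78.8 ± 5.53 CPM (SD, n = 4) with the GFP hairpin to 29.2 ± 1.20 and 28.1 ± 3.07 CPM with hairpins A and B in PE, and from 90.0 ± 5.18 to 31.04 ± 2.76 and 29.5 ± 5.40 CPM in PM. CPM are counts per 1 M counts of the library after TMM scaling, which aligns the libraries on the bulk of their genes. Replicate 1 of the GFP hairpin in PE (the fewest counts), replicate 4 of hairpin A in PM and replicate 3 of hairpin B in PM stood apart from the others. They had counts on 18380, 19514 and 33137 genes, where the other libraries had 21732 to 24764. Values without these 3 libraries are given where a call depends on them. Of the 8 members 7 passed the filter on low counts. CCL2 did not, and CXCL5 passed only through the GFP hairpin groups in which it is high. The share of counts on mitochondrial ribosomal RNA was 0.272% to 0.439% with the GFP hairpin and 0.374% to 0.586% with the CHD1 hairpins in PE, and 0.216% to 0.341% and 0.415% to 0.567% in PM. Its part in the chemokine values was not tested.

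Per kilobase of exon, CXCL1 stood first in each of the 6 groups and CCL20 second. With the GFP hairpin in PE the order was CXCL1 (880 ± 148 CPM per kb), CCL20 (319 ± 47.6), CXCL8 (242 ± 46.6), CXCL2 (109 ± 15.4), CXCL3 (100.2 ± 17.4), CXCL16 (2.49 ± 0.35), CXCL5 (0.446 ± 0.195) and CCL2 (0.014 ± 0.016; SD, n = 4 for each). The ranges of CCL20 and CXCL8 overlapped, as did those of CXCL2 and CXCL3. In PM with the GFP hairpin the order was the same, from 297 ± 48.1 CPM per kb for CXCL1 to 59.5 ± 17.7 for CXCL3 and 3.73 ± 0.04 for CXCL16. CXCL3 changed place: with hairpin A in PM it stood at 1.87 ± 0.81 CPM per kb, below CXCL16 at 4.23 ± 0.59, and the libraries of the 2 genes did not overlap. With hairpin B in PM, CXCL2 (21.7 ± 7.12 CPM per kb) stood above CXCL8 (17.0 ± 5.14), with overlapping ranges.

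**Figure D1:**
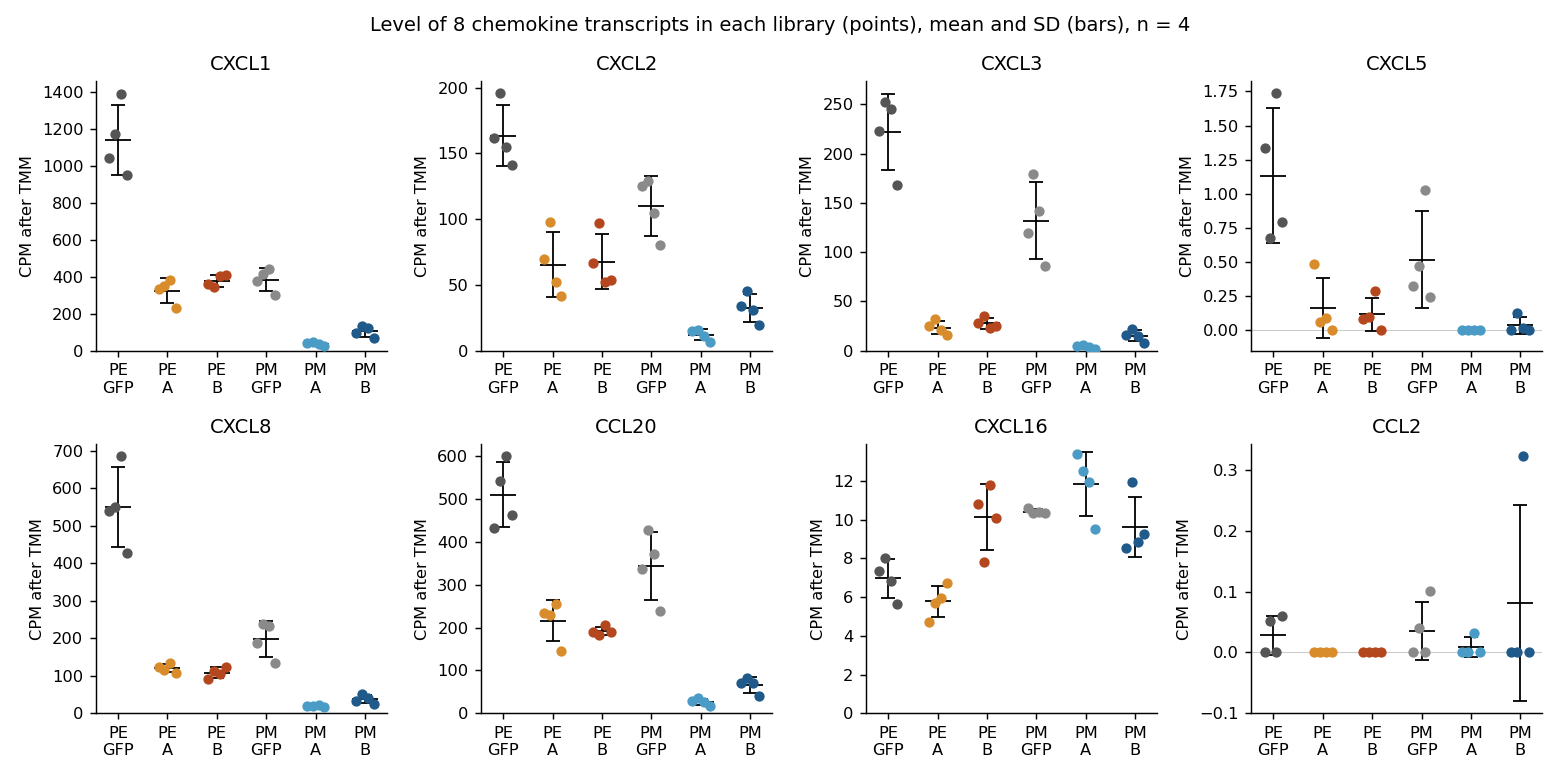
Level of each chemokine transcript (vertical axes, CPM after TMM scaling, linear) in the 24 libraries, by line and hairpin; points are libraries, horizontal marks the group means and bars the SD of 4 libraries. CXCL1, CXCL2, CXCL3, CXCL5, CXCL8 and CCL20 are lower with either CHD1 hairpin than with the GFP hairpin in both lines, CXCL16 is not, and CCL2 stays at or below 0.324 CPM.

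CXCL1, a neutrophil attractant first described as a melanoma growth factor, had the highest level of the ELR chemokines. In PE its libraries gave 1045, 1175, 1392 and 950.1 CPM with the GFP hairpin, 335, 351, 385 and 229 CPM with hairpin A, and 361, 344, 403 and 408 CPM with hairpin B. In PM they gave 378, 415, 445 and 301 CPM with the GFP hairpin, 39.6, 44.9, 34.3 and 23.3 CPM with hairpin A, and 97.7, 133, 122 and 66.5 CPM with hairpin B. No CHD1 hairpin library reached the lowest GFP hairpin library of its line, and the GFP hairpin libraries of PM overlapped with the CHD1 hairpin libraries of PE. The log2 difference from the GFP hairpin was -1.81 ± 0.22 (SE) for A and -1.59 ± 0.22 for B in PE, and -3.44 ± 0.24 and -1.88 ± 0.22 in PM.

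CXCL3, the close relative of CXCL1 and CXCL2 in sequence, showed a greater difference than either in every comparison with the GFP hairpin. Its libraries in PE gave 223, 253, 246 and 168 CPM with the GFP hairpin, 25.02, 31.7, 21.4 and 15.6 CPM with hairpin A, and 28.5, 35.6, 22.6 and 25.4 CPM with hairpin B. In PM the values were 119.9, 179.8, 142 and 86.2 CPM with the GFP hairpin, 5.21, 5.95, 3.59 and 1.89 CPM with hairpin A, and 16.1, 22.2, 14.8 and 8.33 CPM with hairpin B. The CHD1 hairpin libraries were all below those of the GFP hairpin in their line, and within PM those of A were all below those of B. On the log2 scale CXCL3 differed from the GFP hairpin by -3.25 ± 0.32 (A) and -3.001 ± 0.32 (B) in PE and by -4.99 ± 0.36 (A) and -3.11 ± 0.32 (B) in PM.

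CXCL2, which binds the same receptor, lay between 141 and 196 CPM with the GFP hairpin in PE, between 41.4 and 98.1 CPM with hairpin A and between 52.2 and 97.4 CPM with hairpin B. In PM it lay between 80.6 and 129 CPM with the GFP hairpin, between 6.81 and 16.0 CPM with hairpin A and between 19.5 and 45.5 CPM with hairpin B. The groups did not overlap with the GFP hairpin in either line, at log2 differences of -1.32 ± 0.30 and -1.28 ± 0.30 in PE and -3.18 ± 0.33 and -1.76 ± 0.30 in PM. CXCL1, CXCL2 and CXCL3 share exonic stretches: 4.81%, 12.5% and 6.01% of their 50-base words occur in another of the 3, so reads there could have been split among them, and how the authors treated such reads is not given in the sources used here.

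Within the summed counts of these 3 genes, CXCL3 held 14.5% ± 1.20 (SD, n = 4) with the GFP hairpin in PE, 5.64% ± 0.80 with hairpin A and 5.91% ± 1.21 with hairpin B. In PM it held 20.8% ± 2.85, 7.73% ± 1.41 and 9.91% ± 1.25. The CHD1 hairpin libraries were all below those of the GFP hairpin in their line. CXCL2 held a larger share with either CHD1 hairpin, 15.6% ± 3.79 and 14.3% ± 4.45 against 10.8% ± 1.48 in PE and 23.1% ± 1.47 and 21.3% ± 2.04 against 17.6% ± 2.07 in PM, with overlap in 3 of the 4 comparisons. These shares come from the values on which the members were selected and are not tested.

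**Figure D2:**
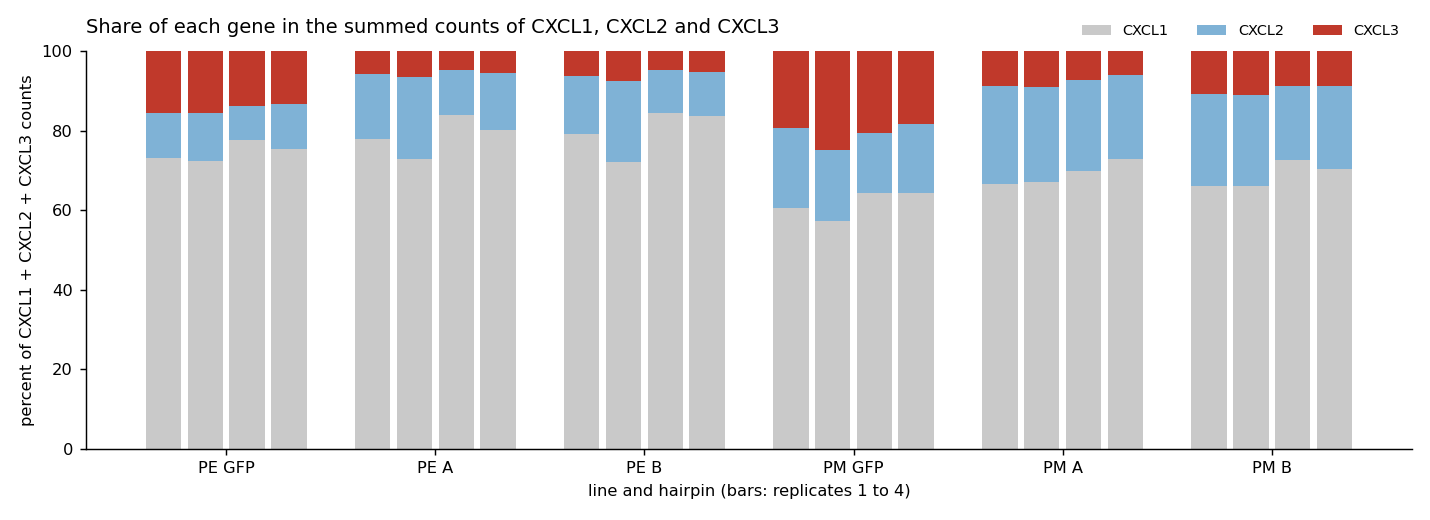
Share of CXCL1, CXCL2 and CXCL3 in their summed counts (vertical axis, percent, from 0) in each library, one stacked bar per library, grouped by line and hairpin. The CXCL3 share, at the top of each bar, is 13.3% to 24.8% with the GFP hairpin and 4.67% to 11.1% with the CHD1 hairpins.

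CXCL8 encodes interleukin 8, the ligand of CXCR1 and CXCR2. Its libraries in PE gave 539, 550.4, 686 and 427 CPM with the GFP hairpin, 124, 115, 134 and 108 CPM with hairpin A, and 90.7, 114, 106 and 125 CPM with hairpin B. In PM they gave 187, 238, 232 and 134 CPM with the GFP hairpin, 19.1, 20.7, 22.5 and 17.9 CPM with hairpin A, and 33.8, 52.9, 41.97 and 25.5 CPM with hairpin B. Both CHD1 hairpins were below the GFP hairpin without overlap in each line, with log2 differences of -2.19 ± 0.21 and -2.34 ± 0.21 in PE and -3.30 ± 0.22 and -2.37 ± 0.21 in PM. CXCL5, a further ELR chemokine, was near the limit of detection, with 173 counts over the 4 GFP hairpin libraries in PE, 30 with hairpin A and 28 with hairpin B. In PM it had 128 counts with the GFP hairpin, none with hairpin A and 5 with hairpin B. Against a floor of 3 counts over the group, pooled CXCL5 was at least 39.8-fold lower with hairpin A than with the GFP hairpin in PM. This bound leaves out the spread between libraries. Of the 128 counts 83 came from replicate 3, at 1.03 CPM, with 0.32, 0.47 and 0.24 CPM in replicates 1, 2 and 4.

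CCL20, which attracts CCR6-bearing dendritic cells and lymphocytes, lies on chromosome 2, apart from the CXCL genes. In PE its libraries gave 433, 542, 599 and 462 CPM with the GFP hairpin, 234, 230.3, 254 and 145 CPM with hairpin A, and 189.9, 183, 206 and 190.3 CPM with hairpin B. In PM they gave 336, 428, 371 and 239 CPM with the GFP hairpin, 28.1, 35.9, 26.6 and 17.0 CPM with hairpin A, and 69.9, 83.1, 69.8 and 40.5 CPM with hairpin B. No group with a CHD1 hairpin overlapped with the GFP hairpin of its line. The log2 difference was -1.24 ± 0.23 for A and -1.40 ± 0.23 for B in PE, and it reached -3.67 ± 0.26 for A and -2.38 ± 0.24 for B in PM.

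CXCL16, the transmembrane chemokine, stood apart from the rest. Its libraries in PE gave 7.34, 8.00, 6.85 and 5.66 CPM with the GFP hairpin, 4.74, 5.71, 5.96 and 6.72 CPM with hairpin A, and 10.8, 7.84, 11.8 and 10.1 CPM with hairpin B. In PM they gave 10.6, 10.3, 10.4 and 10.4 CPM with the GFP hairpin, 13.4, 12.5, 11.9 and 9.51 CPM with hairpin A, and 8.53, 11.9, 8.83 and 9.24 CPM with hairpin B. Every CHD1 hairpin group overlapped with the GFP hairpin group of its line, at log2 differences of -0.25 ± 0.16 and 0.57 ± 0.16 in PE and 0.18 ± 0.15 and -0.12 ± 0.15 in PM. CCL2, the monocyte attractant, gave 4, 0 and 0 counts over the 4 libraries of the GFP hairpin, A and B in PE and 7, 3 and 24 in PM, and all 24 came from replicate 3 of hairpin B. That library is 1 of the 3 that stood apart, and no fold is given for CCL2.

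**Figure D3:**
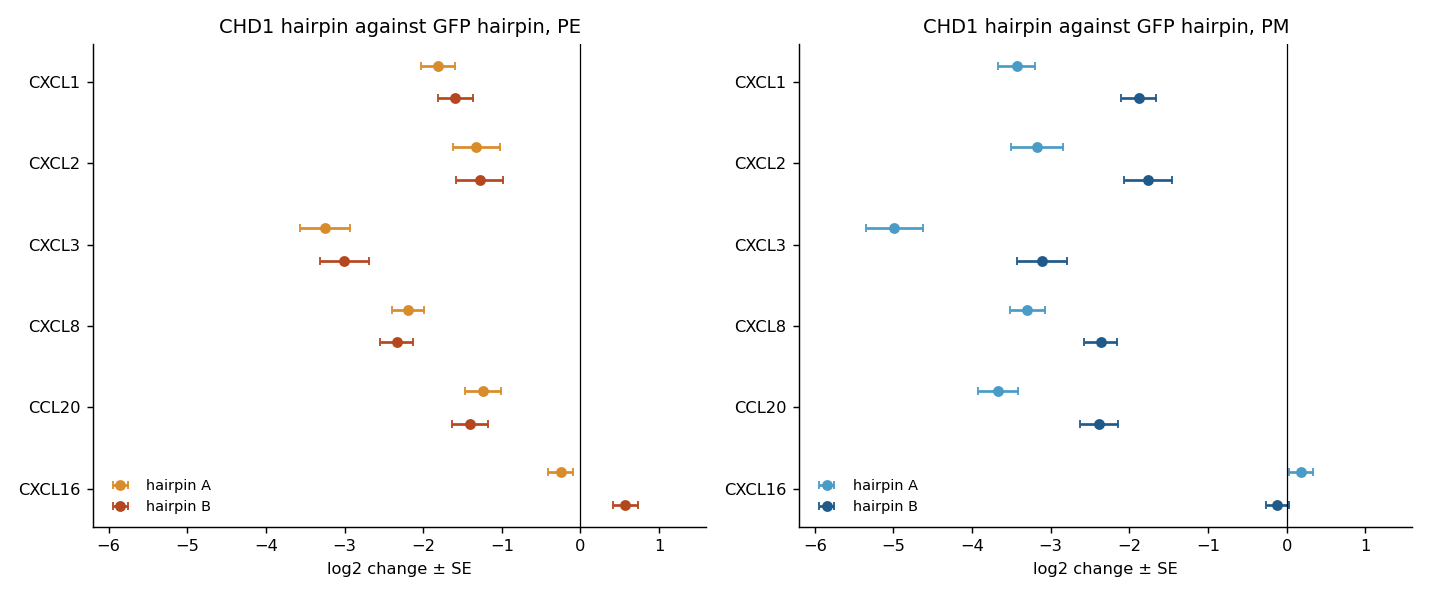
Difference from the GFP hairpin (horizontal axes, log2, with SE bars) of 6 members in PE (left) and PM (right), one point per CHD1 hairpin; CXCL5 and CCL2 are left out for low counts. For CXCL16 the point of A lies below that of B in PE and above it in PM; for the other 5 genes A and B differ by at most 0.25 in PE, and A lies lower in PM.

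No count of members past the threshold (adjusted p 0.05, edgeR quasi-likelihood test) is given for the comparisons with the GFP hairpin. These comparisons chose the members, and CXCL5 passed the filter only through the GFP hairpin groups. In bulk RNA, fewer cells making a chemokine and less of its RNA per cell cannot be told apart. The 8 transcripts together made up 0.265% ± 0.039 (SD, n = 4) of all counts with the GFP hairpin in PE, 0.073% ± 0.014 with hairpin A and 0.079% ± 0.003 with hairpin B. In PM the shares were 0.117% ± 0.024, 0.011% ± 0.002 and 0.027% ± 0.008.

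The first tested question was how the lines differ with the same hairpin. With the GFP hairpin, CXCL1 was lower in PM than in PE by a log2 change of -1.57 ± 0.22 (adjusted p = 1.95e-05, edgeR quasi-likelihood test) and CXCL8 by -1.48 ± 0.20 (adjusted p = 1.47e-05), while CXCL16 was higher by 0.60 ± 0.16 (adjusted p = 0.00392). The libraries of the 2 lines did not overlap for these 3 genes. The share of all tested genes without overlap was not counted for this or any later comparison. Statements on overlap therefore describe the members only. CXCL2 (-0.57 ± 0.30, adjusted p = 0.187 in the same edgeR test), CXCL3 (-0.75 ± 0.29, adjusted p = 0.0699) and CCL20 (-0.57 ± 0.23, adjusted p = 0.0819) did not pass, though for CXCL2 and CCL20 the libraries did not overlap. The 2 members lower and 1 higher compare with 11.4% and 14.1% of all tested genes. This comparison rests on the GFP hairpin libraries that also served in the choice of the members. The number lower was 4 with the DESeq2 test, with a filter of 5 CPM or with these 2 groups fitted alone, and 5 with a replicate block.

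With either CHD1 hairpin, CXCL1, CXCL2, CXCL3, CXCL8 and CCL20 were lower in PM than in PE. These comparisons use no GFP hairpin library. The CHD1 hairpin libraries in these and the following tests of the members also served in their choice, however. With hairpin A, CXCL1 differed by -3.19 ± 0.24 (adjusted p = 1.27e-09, edgeR), CCL20 by -3.001 ± 0.25, CXCL8 by -2.58 ± 0.21, CXCL3 by -2.49 ± 0.35 and CXCL2 by -2.43 ± 0.32. The libraries of these 5 genes did not overlap, and the largest of their 5 adjusted p-values in the edgeR test was 7.05e-06. CXCL5 had 0 counts in PM and 30 in PE, 25 of them in replicate 1, and the libraries overlapped (two-sided exact permutation p = 0.114). Its adjusted p in the edgeR fit was 0.00538, and 0.0634 without that replicate, so this call rests on 1 library. CXCL16 was higher by 1.03 ± 0.15 (adjusted p = 8.61e-07, edgeR). Over all tested genes 19.8% were lower and 20.1% higher in this comparison.

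With hairpin B, 5 members were lower in PM, where 14.5% of tested genes were lower. CXCL1 differed by -1.86 ± 0.22 (adjusted p = 2.06e-06, edgeR), CCL20 by -1.55 ± 0.24 (4.02e-05), CXCL8 by -1.50 ± 0.20 (9.94e-06) and CXCL2 by -1.05 ± 0.30 (0.0114). CXCL3, at -0.86 ± 0.31 (adjusted p = 0.0403, edgeR), passed narrowly and was lost in 6 of 8 fits that left out 1 library, with adjusted p up to 0.120, and without the 3 libraries that stood apart (0.0692). No member was higher, against 15.7% of tested genes, and CXCL16 differed by -0.09 ± 0.15 (95% interval -0.38 to 0.21, adjusted p = 0.743, edgeR). The exact two-sided permutation test of 4 against 4 libraries used log2 CPM with 0.5 added to each count. It cannot give less than 0.0286, and gave that value for each of these 5 lower members. The share of all tested genes at that value was not counted.

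**Figure D4:**
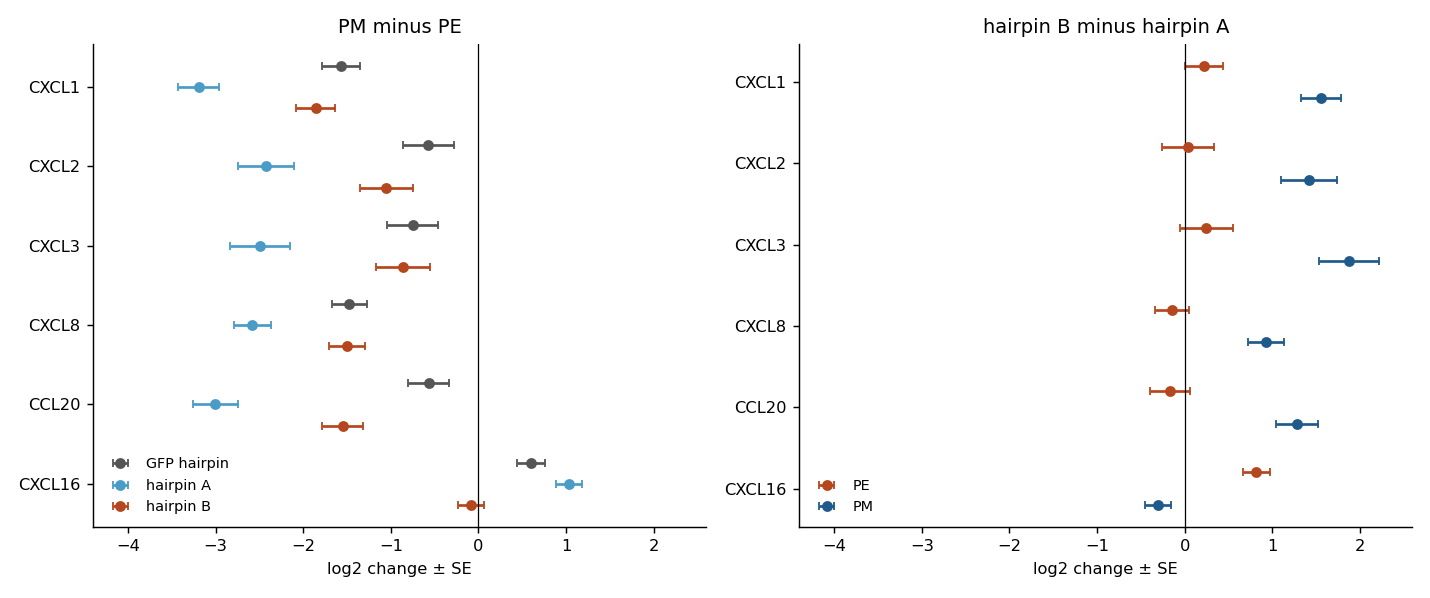
Log2 difference with SE bars of 6 members between PM and PE for each hairpin (left) and between hairpins B and A for each line (right). CXCL1, CXCL2, CXCL3, CXCL8 and CCL20 lie left of 0 in each comparison of the lines and right of 0 for B against A in PM, while CXCL16 lies right of 0 for the GFP hairpin and hairpin A and for B against A in PE.

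The second tested question was whether the 2 hairpins gave the same chemokine levels. In PE, CXCL16 was higher with B than with A by 0.82 ± 0.15 (adjusted p = 0.000158, edgeR), its libraries not overlapping, and it was the 1 member called. Of all tested genes 7.48% were higher and 9.09% lower. For CXCL1 the difference was 0.22 ± 0.21 (95% interval -0.20 to 0.64), for CXCL3 0.25 ± 0.30 (-0.35 to 0.84), for CXCL8 -0.14 ± 0.20 (-0.53 to 0.24) and for CCL20 -0.17 ± 0.23 (-0.62 to 0.28). These intervals leave room for differences of either sign.

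In PM the same 5 chemokines were higher with B than with A. CXCL3 differed by 1.88 ± 0.34 (adjusted p = 0.000387, edgeR), CXCL1 by 1.56 ± 0.22 (3.04e-05), CXCL2 by 1.42 ± 0.32 (0.00216), CCL20 by 1.29 ± 0.24 (0.000464) and CXCL8 by 0.93 ± 0.21 (0.00220). These 5 members compare with 12.7% of tested genes higher and 13.5% lower. Their libraries did not overlap. The CHD1 transcript itself was at 29.5 ± 5.40 CPM with B and 31.04 ± 2.76 CPM with A. CXCL16 differed by -0.30 ± 0.15 (adjusted p = 0.143, edgeR).

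A test of the difference between the lines in B minus A, which uses no GFP hairpin library and was added after the values had been seen, gave 4 members higher in PM where 2.94% of tested genes were. These were CCL20 (1.45 ± 0.33, adjusted p = 0.0129, edgeR), CXCL1 (1.33 ± 0.31, 0.0136), CXCL8 (1.08 ± 0.29, 0.0342) and CXCL3 (1.63 ± 0.46, 0.0461). CXCL2 had 1.38 ± 0.43 (adjusted p = 0.0793, edgeR), and passed with a replicate block (4.68e-05), with the DESeq2 test (0.0184) and with a filter of 5 CPM (0.0472). CXCL16 went the other way, at -1.12 ± 0.21 (adjusted p = 0.000779, edgeR), where 2.07% of tested genes were lower. Without the 3 libraries that stood apart, CCL20 alone stayed past the threshold among the 4, and CXCL1 had 1.11 with an adjusted p of 0.0521. CXCL3 was lost in 12 and CXCL8 in 10 of 16 edgeR fits that left out 1 library, whereas CXCL16, CXCL1 and CCL20 kept their calls in all 16.

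Set against the GFP hairpin, as a description, the change under hairpin A was further below 0 in PM than in PE, with a log2 difference of -2.43 ± 0.33 for CCL20, -1.86 ± 0.43 for CXCL2, -1.74 ± 0.45 for CXCL3, -1.62 ± 0.31 for CXCL1 and -1.10 ± 0.28 for CXCL8. For hairpin B the same quantity was -0.98 ± 0.33 for CCL20 and between -0.48 and -0.03 for the other 4.

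Libraries of a group also varied together. The log2 deviations from the group means correlated at Pearson's r = 0.948 between CXCL1 and CCL20, 0.933 between CXCL2 and CXCL3 and 0.864 between CXCL3 and CCL20, over 24 libraries in which the genes share depth and scaling. CXCL16 had at most r = 0.336 with any other member. The library numbered 4 was the lowest of its group in 5 of 6 groups for CXCL1, CXCL2, CXCL3 and CXCL8 and in 4 of 6 for CCL20. Over the group differences as well, the genes most like CXCL1 among 11048 genes were IL1A (r = 0.98), KLHL5, CCL20, TNIP1 and MAFF, and those most like CXCL8 were LAMB3 (0.99), TNIP1, KLHL5, CXCL1 and UBTD2. For CCL20 they were CXCL1 (0.98), MAFF, CXCL2, KLHL5 and CXCL8, and for CXCL16 GOLM1 (0.84), CLDN7, CDC42EP3, PDE4A and DUSP14. CCL2, near 0 counts, had no gene above r = 0.63 (IGK).

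The 5 ELR chemokine genes lie in a cluster on chromosome 4, from CXCL8 (chr4:73740569-73743716) and CXCL1 (chr4:73869393-73871308) on the plus strand to CXCL5 (chr4:73995642-73998677), CXCL3 (chr4:74036589-74038689) and CXCL2 (chr4:74097040-74099195) on the minus strand (GRCh38.p14). CXCL6, an ELR chemokine gene between CXCL8 and CXCL1, had 0 counts in all 24 libraries. PF4, the platelet chemokine gene next to CXCL5, was at 1.82 CPM with the GFP hairpin in PE and fell under hairpin B (-1.57 ± 0.55, adjusted p = 0.0312, edgeR), with -1.21 ± 0.55 under A (0.122). In PM it fell under hairpin A (-2.72 ± 0.59, adjusted p = 0.000504, edgeR), with -0.81 ± 0.53 under B (0.294).

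Of the 7 tested non-members within 250 kb of these genes, none passed under both hairpins in either line. Of all tested genes, 5.58% fell and 6.75% rose under both in PE, and 6.89% and 6.46% in PM. With only 7 genes, nothing is read from this count. MTHFD2L, a folate enzyme gene beside CXCL2, fell in PE under hairpin B by a log2 change of -0.44 ± 0.11 (adjusted p = 0.00327, edgeR), with values from -0.25 to 0.21 in the other comparisons. EPGN, which encodes the EGF receptor ligand epigen, fell in PM under hairpin A (-1.36 ± 0.34, adjusted p = 0.00532, edgeR), with -0.26 to -0.86 in the others. LOC105377275, a noncoding gene next to CXCL3, fell in PM under hairpin A (-2.25 ± 0.80, adjusted p = 0.0311, edgeR). RASSF6, on the other side of CXCL8, had values between -0.51 and 0.45, and LOC643014 and LOC105377276 passed in no comparison with the GFP hairpin.

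**Figure D5:**
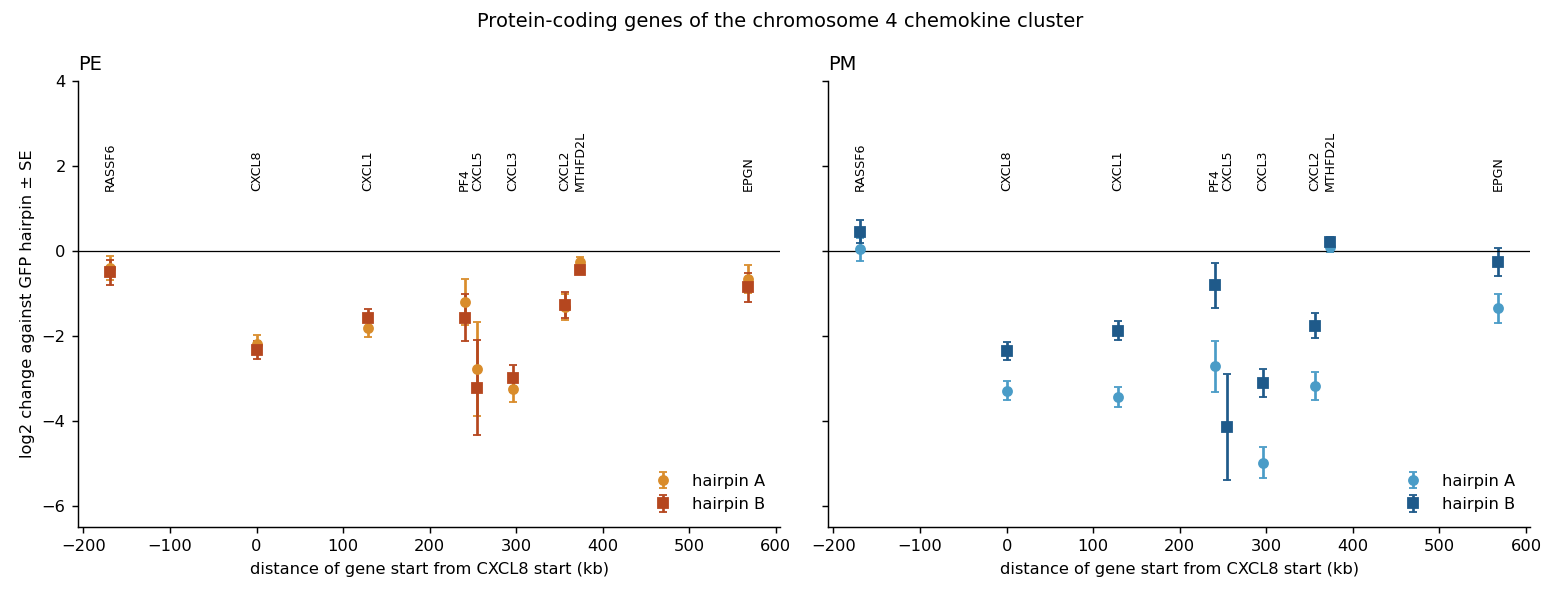
Log2 difference from the GFP hairpin (vertical axis, with SE bars) of the tested protein-coding genes around the chromosome 4 chemokine genes, by distance of the gene start from that of CXCL8 (horizontal axis, kb), in PE (left) and PM (right); CXCL5 under hairpin A in PM, with 0 counts, is not drawn. The members drawn lie below 0 under both hairpins. Among the other genes, PF4 lies between -2.72 and -0.81, EPGN between -1.36 and -0.26, and RASSF6 and MTHFD2L between -0.51 and 0.45.

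Receptors of these ligands were hardly detected. CXCR1, CXCR2, CCR2 and CCR6 did not pass the filter, with group means up to 0.145 CPM, and CXCR6 had 0.0956 to 0.414 CPM without a call under either hairpin. ACKR1, an atypical receptor that binds many of these ligands without signalling, stood at 10.4 ± 1.68 CPM with the GFP hairpin in PE and fell under hairpin B (-1.58 ± 0.38, adjusted p = 0.00246, edgeR), but had 0.20 ± 0.37 under A. In PM it was at 0.300 ± 0.231 CPM. Of 22 chemokine receptor genes 7 were tested (median log2 change 0.86 in PE and 0.42 in PM), and CXCR4, the receptor of CXCL12, was the 1 that rose under both hairpins in each line. It went from 1.30 CPM with the GFP hairpin in PM to 4.75 and 6.37 CPM with A and B (log2 1.85 ± 0.51 and 2.28 ± 0.51), and from 0 in PE to 0.161 and 0.882 CPM. Among 38 other ligand genes 6 were tested (medians -1.32 and -0.77), and none passed under both hairpins in either line. CCL28, the most abundant of the 6 with the GFP hairpin, was at 5.45 CPM in PE and 3.51 CPM in PM.

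Among 20 NF-kB subunits and inhibitors, 8 fell and 1 rose under both hairpins in PE, and 6 fell and 1 rose in PM. Their median log2 change was -0.35 in each line. TNIP1, an inhibitor of the pathway, went from 1149 CPM with the GFP hairpin to 647 and 562 CPM with A and B in PE and from 679 to 228 and 301 CPM in PM. NFKBIA and TNFAIP3, inhibitors that are themselves NF-kB targets, fell by 0.50 and 0.81 on the log2 scale under A and by 0.69 and 0.74 under B in PE, and by 0.93 and 1.76 under A and 0.46 and 0.91 under B in PM. NFKBIZ, a nuclear cofactor, fell in all 4 comparisons, by 0.80 to 1.81, and BIRC3, an inhibitor of apoptosis, fell in PE by 1.35 and 1.00. CYLD, a deubiquitinase that restrains the pathway, rose by 1.32 and 1.48 in PE and by 1.18 and 1.64 in PM. RELA, the subunit that activates most targets, had log2 changes between -0.07 and 0.08 in the 4 comparisons. NFKB1 had -0.27 to -0.04 and passed under B in PE (adjusted p = 0.00069, edgeR). Of the other subunits, RELB fell under both hairpins in each line (-0.44 and -0.45 in PE, -0.67 and -0.56 in PM). NFKB2 fell under both in PE (-0.40 and -0.73) and under B in PM (-0.63), with -0.13 under A. REL fell under B in PE (-0.45) and PM (-0.51), with -0.04 and -0.11 under A.

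Of 16 cytokines and colony-stimulating factors 15 were tested, and 6 fell and 1 rose under both hairpins in PE, with 3 falls in PM. The median log2 change of the list was -1.10 in PE and -0.85 in PM. IL1A, which encodes the alarmin interleukin 1 alpha, went from 278 ± 54.8 CPM (SD, n = 4) to 82.3 ± 25.3 and 65.4 ± 12.0 CPM in PE and from 64.5 ± 12.6 to 6.51 ± 1.53 and 16.9 ± 5.51 CPM in PM. Between the hairpins, IL1A was higher with B than with A in PM (1.35 ± 0.28, adjusted p = 0.00109, edgeR) and had -0.33 ± 0.25 in PE. IL1B fell in PE by 1.19 and 0.87 and under A in PM by 1.58, and had -0.17 ± 0.26 under B in PM. IL6 fell from 166 to 41.3 and 34.1 CPM in PE and from 19.7 to 2.59 and 5.55 CPM in PM. CSF3, which drives neutrophil production, fell in PM from 311 to 70.1 and 173 CPM. CSF2 and IL1RN fell in PE from 2.38 and 1.90 CPM to at most 0.148 CPM, and TNF had a group mean of at most 0.766 CPM.

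Of 22 cytokine and pattern receptors with their adaptors, 6 rose and 3 fell under both hairpins in PE, and 1 rose and 3 fell in PM. IL1R1, the signalling receptor of interleukin 1, rose by 0.99 and 0.85 in PE, but in PM fell under A (-0.51 ± 0.10, adjusted p = 0.000182, edgeR) and had 0.04 ± 0.10 under B. TLR3, a sensor of double-stranded RNA, rose by 0.92 and 1.11 in PE and 0.88 and 1.31 in PM. IRAK2, a kinase adaptor of these receptors, fell by 0.77 and 1.19 in PE and by 1.69 and 0.56 in PM. TLR2 fell in PE from 1.05 to 0.0882 and 0.0323 CPM, and IRAK4 and TRAF2 fell in PM by 0.28 to 0.81. TRAF2 also fell in PE under both hairpins (-0.51 and -0.61). The median of the list was -0.01 in PE and -0.22 in PM.

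Factors that set the life of AU-rich messages went both ways, with 2 of 16 tested genes rising and 2 falling under both hairpins in PE and 2 rising and 3 falling in PM. HNRNPD, which binds AU-rich elements, rose by 0.86 and 0.66 in PE and 0.72 and 0.58 in PM, and RC3H2, a roquin, rose by 0.79 to 0.99 over both lines. ZFP36L1, which promotes decay, fell by 0.58 and 0.45 in PE and 1.03 and 0.42 in PM, and ZC3H12A, an endonuclease that cuts such messages, fell by 0.78 and 0.71 in PE and 1.72 and 0.54 in PM. The medians were -0.08 and -0.12.

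Of 10 genes of the response to glucocorticoid, which the medium contained, 1 fell under both hairpins in PE and 1 fell and 1 rose in PM. The fall was NFKBIA, which the NF-kB list also holds, and the rise was PER1 (0.42 and 0.18). The medians were 0.15 and 0.07. None of 6 tested genes that shed or cleave chemokines passed under both hairpins in either line (medians 0.07 and -0.18). Under single hairpins, 5 fell with A in PM and 3 rose with B in PE. There 5778 and 5587 of all 20820 tested genes passed in either direction. With B in PM 1 rose, and with A in PE none passed. In PM 4 were higher with B than with A, beside 12.7% of tested genes. In PM against PE 5 were lower with the GFP hairpin, A and B each, beside 11.4%, 19.8% and 14.5%. For all tested genes the falls under both hairpins made up 5.58% in PE and 6.89% in PM and the rises 6.75% and 6.46%, with medians of -0.003 and -0.01. These lists were written with earlier results of these libraries known.

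Epithelial markers were unevenly represented. KRT5 was at 830 to 1321 CPM and KRT8 at 237 to 386 CPM as group means, whereas KRT19 had at most 0.101 CPM and TP63 at most 0.650 CPM, and KRT14 ranged from 0.529 to 39.4 CPM. Of 12 epithelial markers 11 were tested, and 5 fell and 1 rose under both hairpins in PE, among the falls CDH1, from 9.22 to 2.12 and 0.309 CPM, and KRT17, from 76.3 to 14.3 and 2.29 CPM. In PM 3 fell and 1 rose, and CDH1 stood at 18.3 to 26.8 CPM. The medians were -1.25 and -0.18. The summed level of the list was 2130 to 3122 CPM with the GFP hairpin in PE, 1873 to 2665 with A and 1381 to 1856 with B, and 2070.1 to 2957 CPM over PM. Its part in the chemokine values was not tested.

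Immune cells and fibroblasts also make these chemokines. Of 16 immune markers 4 were tested (medians 0.10 and 0.19), and the sum was 58.2 to 88.0 CPM over PE. In PM it was 54.9 to 59.9 CPM with the GFP hairpin, 42.6 to 49.8 with A and 39.7 to 49.0 with B. Most of it was CD68 and CD14, which other cells express, and CD68 fell in PM under both hairpins (-1.25 ± 0.14 and -0.45 ± 0.14). CD14 rose under hairpin A in both lines (0.77 ± 0.12 in PE and 0.87 ± 0.12 in PM), and CSF1R fell under both hairpins in PE (-0.83 ± 0.26 and -1.28 ± 0.26). PTPRC, the common leukocyte marker, had a group mean of at most 0.278 CPM, and TPSAB1, a mast cell marker, was at 0 in 5 of the 6 groups. Of 12 fibroblast and endothelial markers 10 were tested (medians 0.33 and 0.48), and the sum was 31.6 to 72.6 CPM in PE and 16.8 to 67.7 CPM in PM, with COL1A1 rising in PM (0.84 ± 0.18 and 1.22 ± 0.18). DCN, the most abundant of them, was at 51.6 CPM with the GFP hairpin, 26.1 with A and 20.0 with B in PE (adjusted p = 0.102 and 0.0179, edgeR), and at 15.7, 3.25 and 29.6 CPM in PM (0.000604 and 0.107). LUM fell in PM under A from 6.52 to 1.95 CPM (adjusted p = 0.00252, edgeR). PM with hairpin A was also the group with the lowest mean levels of CXCL1, CXCL2, CXCL3, CXCL8 and CCL20. The part of these genes in the chemokine values was not tested.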

How the data were processed

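Poly(A) RNA of 24 libraries of MCF10A cells was analysed from 1 table of counts per gene that the authors deposited. Per the submitters' processing notes, reads were checked with FastQC, trimmed with Trim Galore 0.4.0, aligned to GRCh38 with HISAT2 2.2.1 and counted with featureCounts. The annotation release was not given in the sources used here, nor were the strand setting and the handling of multi-mapping reads. Groups and replicate numbers came from the labels, and 0 columns lacked a sample. No pairing by replicate number was assumed.

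Of 59251 genes, 20820 passed edgeR's filterByExpr. The fit covered all 24 libraries with a mean for each group (edgeR 4.0.16 in R 4.3.3, TMM, robust quasi-likelihood test, two-sided), with Benjamini-Hochberg adjustment within each comparison and a threshold of 0.05. Each SE was obtained from the log2 change and the square root of F, and ± of a level is the SD of 4 libraries. Levels per kb used exon lengths of a GENCODE annotation, not the one behind the counts. The 95% intervals of log2 changes come from the SE and include the spread between libraries, while floors of 3 counts cover counting error only. Likeness is Pearson's r of log2 CPM over 24 libraries. The procedure was tested on simulated data.

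The members, lists and tests were chosen with earlier results of these data known. Named were CHD1, the members, their receptors, key NF-kB and cytokine genes, up to 4 genes per list and line past the threshold under both hairpins, tested neighbours within 250 kb on chromosome 4 and the 5 genes most like a member. Markers KRT5, KRT8, KRT14, KRT19, TP63, CDH1, CD14, CSF1R, PTPRC, TPSAB1, DCN, LUM and the ligands CXCL6 and CCL28 were named after their values were seen. So were the NF-kB subunits RELB, NFKB2 and REL. Alternatives were DESeq2 size factors and its Wald test (DESeq2 1.42.0), library sizes alone, other filters, a replicate block, fits of the compared groups alone and leaving out libraries.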

Additional observations from a re-analysis of the deposited data

Results flagged for a closer look

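Single libraries stood far from the others of their group for 2 members with few counts. CXCL5 in replicate 2 of hairpin B in PM was at 0.127 CPM (4 counts), with the others at or near 0. CCL2 was at 0.0323 CPM in replicate 3 of hairpin A in PM (3 counts) and at 0.324 CPM in replicate 3 of hairpin B in PM (24 counts), with the other libraries of those groups at 0. The latter library had counts on 33137 genes, the most of all libraries. Where the other libraries of a group are at 0, any count marks the remaining library, so no chance rate is given.

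The difference between hairpins B and A was not the same in the 2 lines for 5 members, by the edgeR test of the difference itself, which was added after the values had been seen. On the log2 scale, PM minus PE was 1.63 for CXCL3 (adjusted p = 0.0461), 1.33 for CXCL1 (0.0136), 1.08 for CXCL8 (0.0342), 1.45 for CCL20 (0.0129) and -1.12 for CXCL16 (0.000779). Without the 3 libraries that stood apart, CCL20 was the 1 of the 4 higher genes past the threshold, and leaving out 1 library lost CXCL3 in 12 and CXCL8 in 10 of 16 fits.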

How the results depend on the processing

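No member's log2 change in a tested comparison reversed a call under any alternative. The number of members lower in PM than in PE with the GFP hairpin, 2, became 4 with the DESeq2 Wald test, 4 with a filter of 5 CPM in 4 libraries, 4 with only the groups compared and 5 with a replicate block. The number higher in PM in the test of B minus A between the lines, 4, became 2 with no filter, 1 without the 3 libraries that stood apart (chosen after seeing the data), 2 to 5 when 1 library was left out, and 5 with the DESeq2 Wald test, the filter of 5 CPM or a replicate block. The cause was not tested. Over all tested genes, 1 of 36 pairs of same-numbered libraries correlated over 0.1 in their deviations (range -0.03 to 0.11). Yet 27 of 36 correlated best with their own number, so libraries of the same number shared a weak likeness. The main fit did not take the numbers as pairs, and the replicate block is the alternative that does. For 5 members, the library numbered 4 was also the lowest in 4 or 5 of the 6 groups. The replicate block brought 4 values past the threshold: CXCL2 and CXCL3 in PM against PE with the GFP hairpin had -0.60 and -0.79 (adjusted p = 0.000686 and 0.000356, edgeR), CCL20 had -0.60 (0.00551), and CXCL2 in B minus A between the lines had 1.34 (4.68e-05). No alternative with the filter of 5 CPM gave a value for CXCL5. CCL2 was under the filter of the main fit, and its values from settings without that filter were not kept. Low counts limit both genes.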
